A study of Mus musculus with 22 samples.

Results

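The genes of the calcium switch on the thin filament of striated muscle were followed in mouse interscapular brown adipose tissue (BAT): 10 genes, taken by name from a fixed list, of the 55487 gene identifiers counted in each library. They were the fast skeletal troponin genes Tnnc2, Tnni2 and Tnnt3, the slow skeletal genes Tnnc1, Tnni1 and Tnnt1, the cardiac genes Tnni3 and Tnnt2, and the tropomyosin genes Tpm1 and Tpm2. All 10 were present in both count tables under their Ensembl identifiers.

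In striated muscle, tropomyosin lies along the actin filament and covers the sites that myosin heads bind. Troponin C binds calcium, troponin I holds the filament in its inhibited state, and troponin T fastens the complex to tropomyosin. Fast and slow fibers use different genes for each troponin subunit, and heart muscle shares the slow troponin C gene, Tnnc1, but has its own troponin I and T genes. Tpm1 and Tpm2 also yield transcripts in smooth muscle and in many cells that are not muscle.

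The study sequenced BAT RNA of 22 mice labelled male, 1 library per mouse, in 2 cohorts. The untreated cohort held 5 mice with intact CPEB2, an RNA-binding protein that regulates translation (WT), and 5 that lacked it in every tissue (KO), all 21 to 25 weeks old and given no virus. In the AAV cohort, mice of either genotype received 20000000000 vector genomes of adeno-associated virus in 30 µl into interscapular BAT at 16 weeks and were sampled 9 weeks later, at 25 weeks. The virus carried GFP or PRDM16, a transcriptional regulator of brown fat, and the 4 groups of 3 mice are written WT_GFP, WT_PRDM16, KO_GFP and KO_PRDM16. KO and WT mice were C57BL/6 and carried the deletion or the intact gene from the germline, so no promoter restricts the KO to fat. Replicate numbers are those of the labels and name mice within a group.

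Untreated libraries held 55320927 to 162721202 counts each, and AAV libraries 61636889 to 143005309. Levels are given as CPM, counts brought to a common library total and scaled by the TMM method within each cohort, so values of the 2 cohorts were not tested against each other. Cpeb2 was 7.70 to 14.3 CPM in untreated WT and 2.11 to 11.7 CPM in untreated KO, because the library labelled KO 1 had 11.7 CPM, inside the WT range. In the AAV cohort Cpeb2 was 10.5 to 14.0 CPM in WT and 4.33 to 5.55 CPM in KO, and Prdm16 was 23.9 to 40.2 CPM with AAV-GFP and 45.9 to 128 CPM with AAV-PRDM16. The untreated groups are therefore the libraries labelled WT and KO. Y-linked transcripts were above 10 CPM in 3 of 5 WT libraries and 1 of 5 KO libraries of the untreated cohort and in every library of the AAV cohort, although all mice are labelled male. Xist, the transcript of the inactive X chromosome, was at 104 to 305 CPM in WT 3, WT 5, KO 1, KO 3, KO 4 and KO 5, the 6 libraries without Y-linked transcripts, at 14.0 CPM in WT 4 and at most 1.65 CPM in the other 3 untreated libraries. Summed brown fat markers, Ucp1 among them, were 5082 to 9212 CPM in untreated WT. They were 5630 and 4621 CPM in KO 1 and KO 2 and 11038 to 13843 CPM in KO 3 to 5.

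The 10 genes lie on 6 chromosomes, in GRCm38 coordinates of the GENCODE M21 annotation. The fast genes Tnni2 (chr7:142441808-142444410) and Tnnt3 (chr7:142498836-142516009) are neighbors, 54.4 kb apart on one strand. The slow gene Tnnt1 (chr7:4504570-4516382) and the cardiac gene Tnni3 (chr7:4518305-4524229) lie 1.92 kb apart, and the slow gene Tnni1 (chr1:135779434-135810989) and the cardiac gene Tnnt2 (chr1:135836354-135852260) 25.4 kb apart. Each neighboring pair thus joins a troponin I and a troponin T gene, and 2 of the 3 pairs join a slow gene with a cardiac one. The troponin C genes Tnnc2 (chr2:164777161-164779967) and Tnnc1 (chr14:31208312-31211729) and the tropomyosin genes Tpm1 (chr9:67022590-67049406) and Tpm2 (chr4:43514711-43523765) stand alone.

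RefSeq promoter windows of GRCm38.p6, 250 bases before to 50 bases after a start, were given for 8 of the 10 genes, with Tnni2 and Tnnt3 missing. A window each of a fast, a slow and a cardiac gene and of a tropomyosin gene is printed so that the starts of the different forms can be set side by side. Capitals mark an E-box (CANNTG, the site form bound by the myogenic MYOD family) or an M-CAT motif (CATTCC, the site form bound by TEAD factors), searched on both strands. The windows are Tnnc2 at chr2:164779685-164779984 on the minus strand, Tnnc1 at chr14:31208062-31208361 on the plus strand, Tpm1 at chr9:67049164-67049463 on the minus strand and the first of the 2 windows of Tnnt2 at chr1:135836084-135836383 on the plus strand.
Tnnc2: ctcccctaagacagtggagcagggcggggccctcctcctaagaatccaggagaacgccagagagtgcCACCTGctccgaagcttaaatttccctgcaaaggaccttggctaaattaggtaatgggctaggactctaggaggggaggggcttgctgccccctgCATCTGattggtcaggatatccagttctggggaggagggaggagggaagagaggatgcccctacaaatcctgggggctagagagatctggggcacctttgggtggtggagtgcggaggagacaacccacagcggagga
Tnnc1: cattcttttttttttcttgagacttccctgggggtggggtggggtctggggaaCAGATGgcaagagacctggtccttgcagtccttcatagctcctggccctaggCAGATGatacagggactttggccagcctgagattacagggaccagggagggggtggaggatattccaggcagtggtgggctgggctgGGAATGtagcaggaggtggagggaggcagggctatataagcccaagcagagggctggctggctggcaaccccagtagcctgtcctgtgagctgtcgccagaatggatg
Tpm1: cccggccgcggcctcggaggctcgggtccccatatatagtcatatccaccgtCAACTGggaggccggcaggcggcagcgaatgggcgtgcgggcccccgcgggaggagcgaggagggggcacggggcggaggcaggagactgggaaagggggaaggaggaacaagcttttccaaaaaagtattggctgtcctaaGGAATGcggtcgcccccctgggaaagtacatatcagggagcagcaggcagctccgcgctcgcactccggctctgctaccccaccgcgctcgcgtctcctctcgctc
Tnnt2: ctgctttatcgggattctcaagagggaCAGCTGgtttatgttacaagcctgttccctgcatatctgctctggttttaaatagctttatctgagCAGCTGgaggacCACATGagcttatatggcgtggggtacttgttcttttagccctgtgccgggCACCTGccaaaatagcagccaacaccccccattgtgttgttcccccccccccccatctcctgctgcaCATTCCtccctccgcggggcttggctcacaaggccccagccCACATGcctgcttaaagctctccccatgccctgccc

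All 8 genes had an E-box in a window, as did 72.3% of the 32851 mouse promoter windows. M-CAT was in windows of 3 of the 8, Tnnc1, Tpm1 and Tnnt2, with its first base at position -58, -56 and -27 from the start, and in 14.7% of all windows. The MEF2 motif (3.19% of all windows) and the CArG box (1.63%), also searched on both strands, were in none of the 8 genes' windows. These matches describe the letters in the windows and were not tested for binding.

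Tnnc2 and Tnni3 share exon bases with another gene. Tnnc2 shares 592 of its 800 exon bases with Ube2c, a cell-cycle ubiquitin-conjugating enzyme, on the opposite strand, and how the counts treated strand is not given in the sources used here. Ube2c was at 0.145 to 3.02 CPM over all 22 libraries. WT_GFP 2 and KO_GFP 3 had 144 and 89 Ube2c counts and no Tnnc2 count. Those Ube2c reads may lie outside the shared bases. How reads from the shared bases were counted was not tested in any library. Tnni3 shares 86 exon bases with Dnaaf3 on its own strand, and Dnaaf3 was at 0 to 1.40 CPM.

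The fast troponins were the most abundant troponin transcripts and set the pattern that the slow forms followed in the untreated cohort. Tnnt3, the fast troponin T, was at 11.5, 8.70, 238, 1.28 and 5.18 CPM in WT 1 to 5. In KO 1 to 5 it was at 463, 591, 12.3, 0.576 and 63.2 CPM. KO 1, KO 2 and WT 3 were high, KO 5 was intermediate, and the lowest library of all was KO 4, so that the groups overlapped over the whole range of WT.

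Tnni2, the fast inhibitory subunit, was at 4.33, 3.69, 174, 0.943 and 4.29 CPM in WT 1 to 5 and at 357, 492, 7.79, 0.616 and 77.0 CPM in KO 1 to 5. Tnnc2, the fast calcium sensor, was at 4.79, 3.97, 126, 0.880 and 3.57 CPM in WT and at 221, 358, 8.37, 0.616 and 41.7 CPM in KO, again highest in KO 2, KO 1 and WT 3. In WT 4 and KO 4, Ube2c was at 2.87 and 2.46 CPM, above Tnnc2. The highest library exceeded the lowest 1026-fold for Tnnt3, 799-fold for Tnni2 and 582-fold for Tnnc2. Fewer cells that carry these transcripts and less RNA per cell cannot be told apart in bulk tissue.

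The slow forms were lower in level and stood high in the same libraries. Tnni1, the slow troponin I, was at 0.333, 0, 30.2, 0.0545 and 0.479 CPM in WT 1 to 5 and at 72.9, 97.2, 0.576, 0 and 7.19 CPM in KO 1 to 5. Tnnt1, the slow troponin T, was at 0.412, 0, 35.7, 0.366 and 1.23 CPM in WT and at 100.3, 102, 0.749, 0 and 6.001 CPM in KO. WT 2 and KO 4 held no count of either gene, where 3 counts would be 0.0186 and 0.0596 CPM. Tnnc1, the calcium sensor of slow fibers and heart, was detected in all 10 libraries, at 0.578, 0.217, 22.3, 0.561 and 1.10 CPM in WT and at 72.9, 64.9, 1.08, 0.218 and 4.76 CPM in KO.

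The cardiac forms stayed near the detection limit throughout. Tnni3, cardiac troponin I, was at 0.193, 0.0373, 0.161, 0.218 and 0 CPM in WT and at 0.291, 0.140, 0.0230, 0.0199 and 0 CPM in KO, with at most 30 counts in a library. Tnnt2, cardiac troponin T, had no count in 5 of the 10 libraries and its highest levels in KO 1 (0.427 CPM), KO 2 (0.350 CPM) and WT 3 (0.206 CPM). Tnni3 did not follow the skeletal forms: KO 5, next after the 3 highest libraries in every fast gene, held none of it.

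The tropomyosins differed from the troponins in that no untreated library was below 9.03 CPM of either. Tpm1 was at 65.7, 47.7, 207, 77.7 and 45.1 CPM in WT 1 to 5 and at 322, 412, 49.99, 43.1 and 89.3 CPM in KO 1 to 5, a range of 9.55-fold. Tpm2 was at 15.2, 11.5, 236, 11.1 and 14.9 CPM in WT and at 474, 580, 16.0, 9.03 and 88.7 CPM in KO, a range of 64.3-fold. Both were highest in KO 2, KO 1 and WT 3, and Tpm2 exceeded Tpm1 in these libraries only, while the other 7 libraries had more CPM of Tpm1 than of Tpm2.

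**Figure D1:**
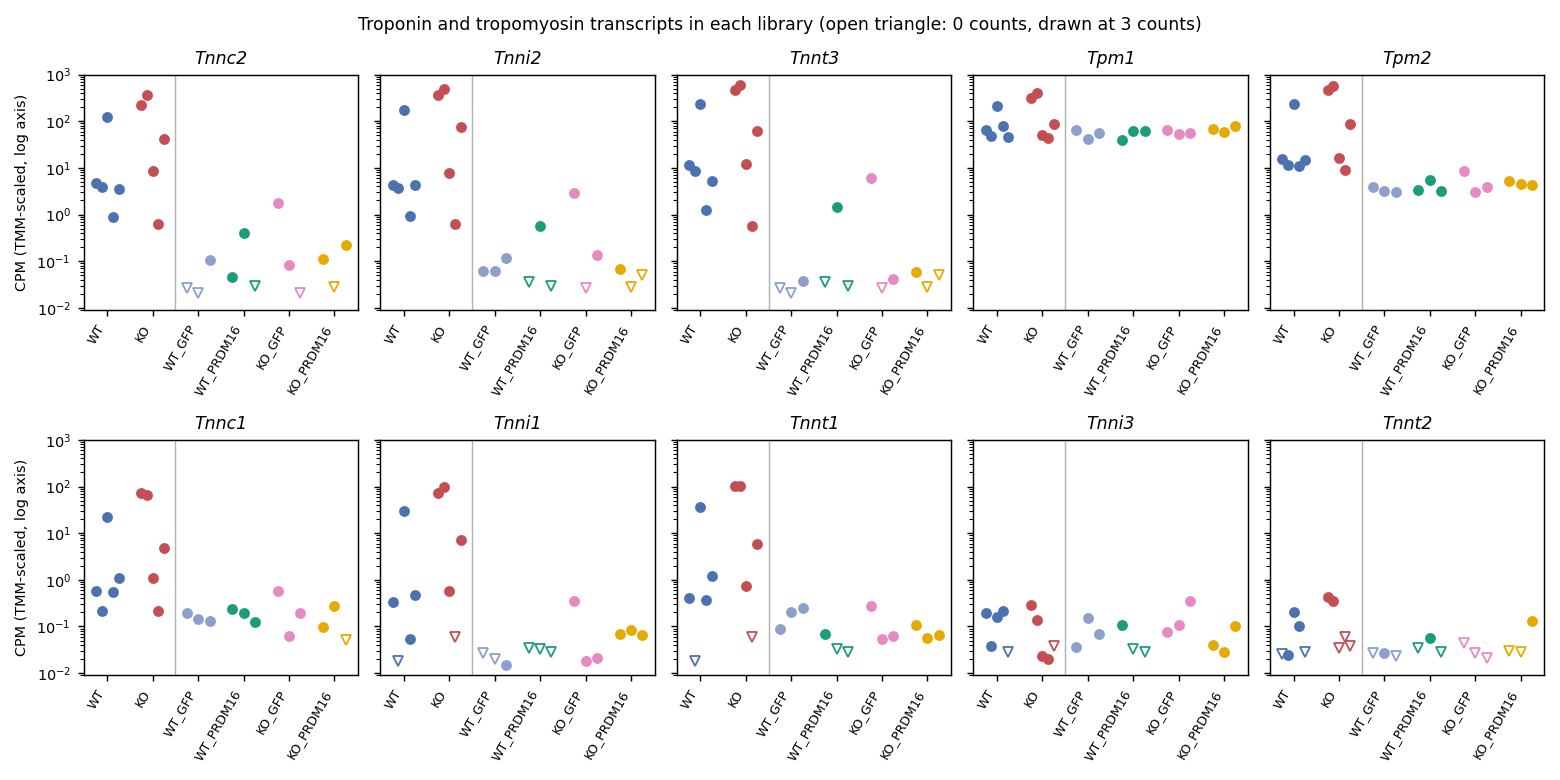
TMM-scaled CPM (log axis) of each of the 10 genes in the 6 groups, 1 point per library in replicate order, with the gray line between the cohorts, which were scaled separately. Open triangles are libraries with 0 counts, drawn at 3 counts. WT 3, KO 1, KO 2 and KO 5 stand above the other untreated libraries in the fast and slow troponins and in Tpm2, Tnni3 and Tnnt2 stay below 1 CPM, and Tpm1 and Tpm2 have counts in every library.

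Per kilobase of exon, which allows genes to be compared, the median KO levels were 52.2 CPM per kb for Tnnc2, 51.4 for Tnni2, 39.9 for Tnnt3, 30.5 for Tpm2 and 13.8 for Tpm1. The slow genes followed with medians of 4.57 for Tnnc1, 2.72 for Tnnt1 and 2.00 CPM per kb for Tnni1, and the cardiac genes were last. In WT the median was highest for Tpm1, at 10.1 CPM per kb, before Tnnt3 at 5.50, Tpm2 at 5.11, Tnnc2 at 4.97 and Tnni2 at 2.87. Across mice the SD exceeded the mean for every skeletal troponin in both groups. Within a library the order of the forms was steady, every fast troponin being above every slow one per kb of exon in 10 of 10 untreated libraries, and likewise per kb of coding sequence. Per kb of exon, the slow genes ranked Tnnc1, Tnnt1 and Tnni1 in each of the 8 libraries with counts of all 3, whereas the order within the fast genes changed between libraries. Per kilobase of coding sequence, the KO order began with Tnni2 at 131, Tpm2 at 88.0 and Tnnc2 at 86.9 CPM per kb, and Tnni1 (12.8) passed Tnnc1 (9.86) and Tnnt1 (6.99).

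The share of slow transcripts was read from the counts of each fast and slow pair, which share a library and its depth. Of Tnni1 and Tnni2 counts together, Tnni1 was 17.0% in KO 1 (exact 95% binomial interval 16.6 to 17.3), 16.5% in KO 2 (16.2 to 16.8) and 14.8% in WT 3 (14.2 to 15.4). It was 10.0% in WT 5 (7.54 to 13.0), 8.54% in KO 5 (7.88 to 9.24), 7.14% in WT 1 (5.10 to 9.67), 6.89% in KO 3 (5.15 to 8.98) and 5.47% in WT 4 (2.23 to 10.9). The 3 libraries highest in skeletal troponins thus had the largest share of slow troponin I, with intervals above those of the other 7 libraries. WT 2 had 0 of 594 counts, which allows a share of up to 0.505%, and KO 4 had 0 of 31, which allows up to 9.68%. All intervals cover counting error only.

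Troponin T gave the same picture in part. Tnnt1 was 17.8%, 14.7% and 13.1% of Tnnt1 and Tnnt3 counts in KO 1, KO 2 and WT 3. It was 22.3% in WT 4 (16.8 to 28.5) and 19.2% in WT 5 (16.2 to 22.4), although these libraries had few counts. It was 8.68%, 5.75% and 3.46% in KO 5, KO 3 and WT 1. WT 2 had 0 of 1401 counts, which allows up to 0.214%, against 2.55 to 4.58% in WT 1, which was close to it in Tnnt3. The absence of slow counts in WT 2 was thus outside counting error, whereas KO 4, with 0 of 29 counts and a limit of 10.3%, was too shallow in these genes to tell.

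Troponin C did not share this pattern in full. Tnnc1 was 38.9% of Tnnc1 and Tnnc2 counts in WT 4 (31.9 to 46.3), 26.2% in KO 4 (13.9 to 42.0), 24.8% in KO 1 (24.3 to 25.3), 23.6% in WT 5 (19.9 to 27.6), 15.3% in KO 2 and 15.1% in WT 3. WT 2 was again lowest, at 5.19% (3.64 to 7.14), but held 35 Tnnc1 counts. The myosin heavy chains, whose Myh7 marks slow fibers and whose Myh4, Myh1 and Myh2 mark fast ones, placed WT 2 in the same way. Myh7 was 0.0957% (0.0523 to 0.160) of these counts in WT 2, and 5.40% to 15.7% in the other 9 libraries.

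**Figure D2:**
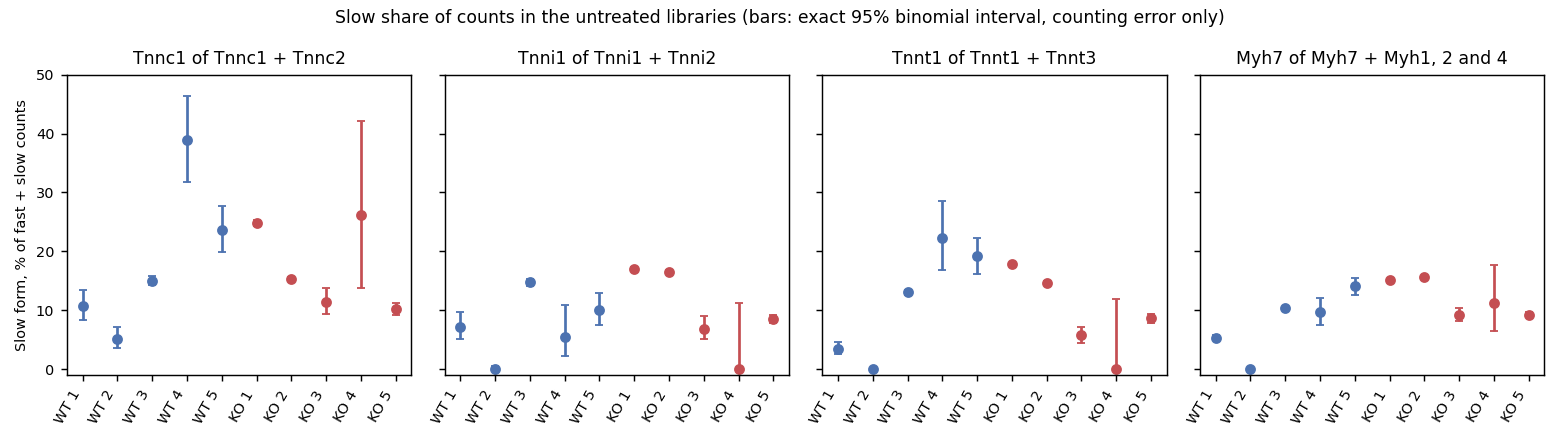
Slow form as a percentage of fast plus slow counts in each untreated library, for troponin C, I and T and for the myosin heavy chains, with exact 95% binomial intervals for counting error. WT 2 is lowest in each panel, at 5.19% for troponin C and at 0% for troponin I and T (with KO 4), and KO 4 has wide intervals.

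Between the groups, the log2 ratio of fast to slow troponin per kb of exon did not differ beyond the spread. For troponin C it was 2.79 ± 1.34 in WT and 2.70 ± 0.76 in KO (SD, n = 5 each, with 0.5 counts added). For troponin I it was 5.98 ± 3.12 in WT and 4.82 ± 1.50 in KO, and for troponin T 5.05 ± 4.02 in WT and 4.09 ± 1.46 in KO. Each difference was smaller than either SD.

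The fitted differences between genotypes were imprecise. In the untreated cohort 9 of the 10 genes passed the filter on low counts, Tnnt2 being left out, and were tested among 17869 genes by edgeR's quasi-likelihood test with Benjamini-Hochberg adjustment (FDR). None reached an FDR of 0.05, where 0% of all genes did, and none had an unadjusted p under 0.05, where 2836 genes did. DESeq2 also called none. With the looser thresholds that the study used, a 2-fold change with FDR no higher than 0.5, 8 of the 9 tested were higher in KO, against 6.04% of all genes in that direction. The study applied these thresholds with the online tool iDEP. The 8 are calls of the edgeR fit, in which 1080 genes passed, and not the study's own list. These 8 genes are high in the same libraries and are not 8 separate measurements. No member separated the groups without overlap, as 1.40% of all genes did.

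The fast genes had a log2 fold change of 2.18 ± 1.49 (SE) for Tnnc2, 2.32 ± 1.58 for Tnni2 and 2.10 ± 1.54 for Tnnt3, KO over WT (FDR 0.430, 0.429 and 0.458). The slow genes had 2.55 ± 1.52 for Tnnc1, 2.53 ± 1.94 for Tnni1 and 2.48 ± 1.87 for Tnnt1 (FDR 0.381, 0.475 and 0.469). The fast forms thus had 2.10 to 2.32 and the slow forms 2.48 to 2.55. Both were read in the same libraries, so these SEs do not measure the spread of a difference between the forms. Tpm2 had 2.02 ± 1.20 (FDR 0.380), Tpm1 1.05 ± 0.66 (FDR 0.398) and Tnni3 -0.31 ± 1.13 (FDR 0.890). The median over the 9 genes was 2.18, beside 0.04 over all genes tested.

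The number of members that passed the looser thresholds changed when single libraries were left out, WT libraries among them. The count of 8 became 0 without WT 1, WT 2 or KO 5, 1 without KO 2, 2 without WT 5, 3 without KO 1 and 5 without WT 4, and was 7 without KO 3 and 8 without KO 4 or WT 3. The size of the difference did not fall wherever the call was lost, since the 6 skeletal troponins had a log2 fold change of 2.34 to 2.82 without KO 5, against 2.10 to 2.55 with all libraries. Without WT 3, the WT library with high troponins, the 6 skeletal troponins had a log2 fold change of 5.08 to 7.39 at an FDR of 0.182 and 8 members had an unadjusted p under 0.05. Without KO 2 the same 6 genes had 1.27 to 1.97. Without WT 3, KO 1 and KO 2 together, left out after their values were seen, they had 1.81 to 3.69 at FDRs of 0.0976 to 0.349, Tpm1 had 0.10 at an FDR of 0.860, and 7 of the 8 members then tested passed the looser thresholds. With the presence of Y-linked transcripts, above 10 CPM or not, as a covariate, the count was 0 and the 6 genes had 2.51 to 3.39. Without both WT 1 and WT 2 the count was also 0 and the 6 genes had 1.45 to 1.83. The share of all genes passing these thresholds was taken only for the fit with all libraries. Whether these counts changed for the members in particular was therefore not tested.

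**Figure D3:**
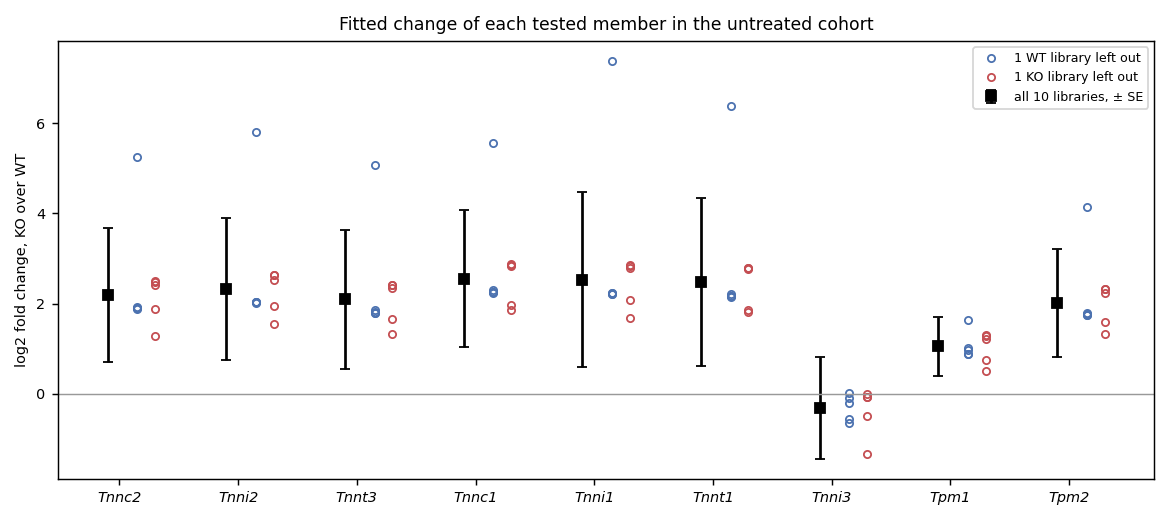
Log2 fold change of KO over WT for the 9 tested genes in the untreated cohort. Black squares are the fit to all 10 libraries with its SE, and open circles the fits with 1 WT (blue) or 1 KO (red) library left out. The blue circle far above the rest in each skeletal troponin and in Tpm2 is the fit without WT 3.

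The other genes of the thin filament, a list of 12 partners, were in part high in the same libraries. None of the 12 reached an FDR of 0.05 or an unadjusted p under 0.05 by edgeR, and 5 were higher in KO by the looser thresholds, which 6.04% of all genes passed. The median log2 fold change over all 12 was 1.49. Acta1, the skeletal actin, was at 29.0, 20.8, 495, 3.10 and 7.69 CPM in WT and at 892, 1292, 16.8, 1.01 and 276 CPM in KO (log2 fold change 2.16 ± 1.55, FDR 0.449). Lmod2 had 2.54 ± 1.67, Klhl40 2.25 ± 1.78 and Tmod4, a cap of the pointed filament end, 1.89 ± 1.48. Tpm3 and Tpm4, tropomyosins made in many cell types, had 0.82 ± 0.50 and 0.09 ± 0.48, and Nebl was the one partner below 0, at -0.14 ± 0.44.

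Skeletal muscle markers were high in the same libraries as the troponins. The summed level of 15 skeletal muscle genes was 56.2 to 3033 CPM in WT and 50.7 to 5700 CPM in KO, all 15 having counts in every untreated library except 1 gene at 0 in KO 4. It was 3033, 5534 and 5700 CPM in WT 3, KO 1 and KO 2, 952 CPM in KO 5 and at most 195 CPM in the other 6. Over the 10 libraries, the correlation of log2 CPM with the log2 of this sum was 0.98 for each fast gene and for Tpm2. It was 0.95 for Tnnc1, 0.93 for Tnni1, 0.92 for Tpm1, 0.89 for Tnnt1 and 0.41 for Tnni3. For Tnnt2, with no count in 5 of the 10 libraries, it was 0.75. These values share the libraries and their scaling. As a share of the summed markers, Tnni2 was 1.21 to 8.63% and Tpm2 5.91 to 19.8%, while Tpm1 ran from 5.82 to 138%. The 1.21% was in KO 4 and the 138% in WT 4, the libraries with the lowest sums, 50.7 and 56.2 CPM. Ckm made up only 0.576 and 1.15 CPM of these sums. Summed brown fat markers were lower in KO 1 and KO 2 than in KO 3 to 5, whereas WT 3, at 8613 CPM, was above 3 of the other 4 WT libraries. The part of muscle tissue in the genotype values was not tested.

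Markers of heart and smooth muscle were read beside them. Of 8 cardiac markers, Nppa, Nppb, Nkx2-5 and Myl7 had no count in any untreated library. Myh6 was at 14.7, 12.7 and 3.47 CPM in KO 1, KO 2 and WT 3, and at most 0.48 CPM in the other untreated libraries. Ryr2 and Myl4 had counts in every untreated library, at 0.953 to 14.9 CPM and 1.35 to 5.47 CPM. Mybpc3 had 17 counts in KO 2 and 4 in KO 3 and none in the others. The summed cardiac list was 4.89 to 16.8 CPM in WT and 5.32 to 27.2 CPM in KO. The highest WT sum was that of WT 1, where Ryr2 was at 14.9 CPM. The summed smooth muscle list of 8 genes was 49.8 to 105 CPM in WT and 52.5 to 133 CPM in KO, a narrower range than for any skeletal troponin.

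**Figure D4:**
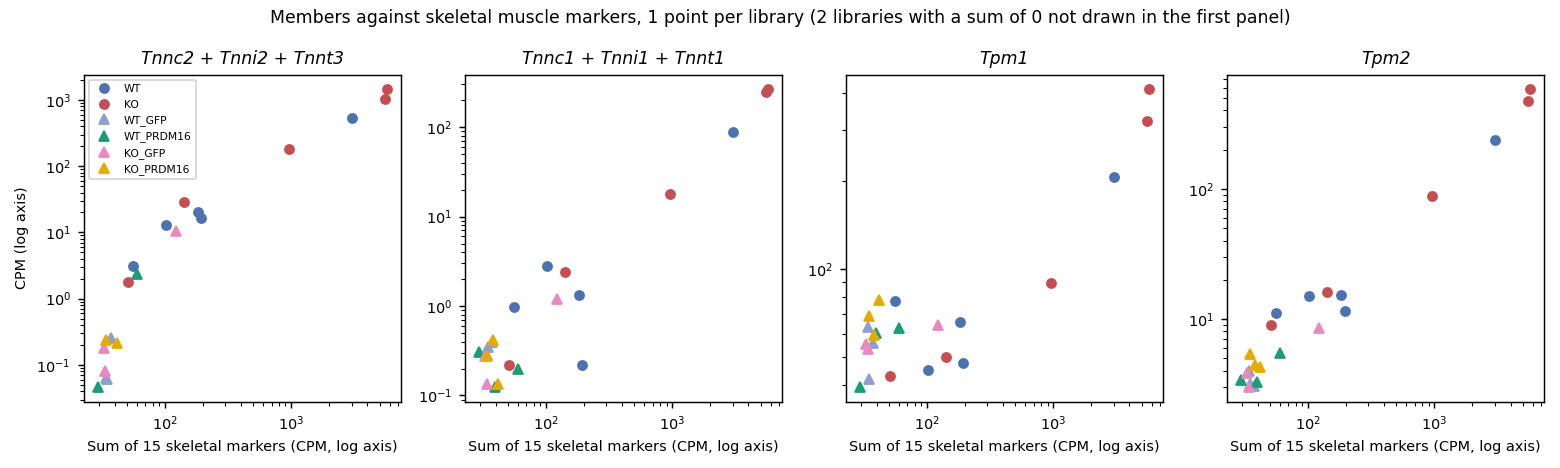
Summed CPM of the 3 fast troponins, of the 3 slow troponins, of Tpm1 and of Tpm2 against the summed CPM of 15 skeletal muscle markers in each of the 22 libraries (log axes). Circles are untreated libraries and triangles AAV libraries. WT_PRDM16 3 and KO_PRDM16 2, whose fast troponin sum was 0, are not drawn in the first panel. Fast and slow troponins are highest in the 4 libraries with the highest marker sums, and show no rise among the 10 AAV libraries with sums of 29.6 to 41.5 CPM, whereas Tpm1 is between 39.5 and 89.3 CPM in the libraries with sums up to 952 CPM.

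In the AAV cohort the skeletal troponins were near 0 in most libraries, and 2 libraries stood apart. Tnnt3 was at 6.004 CPM in KO_GFP 1 (403 counts) and 1.43 CPM in WT_PRDM16 2 (129 counts), had 5 or 6 counts in 3 libraries, and had none in the other 7. Tnni2 was at 2.85 and 0.564 CPM and Tnnc2 at 1.80 and 0.398 CPM in the same 2 libraries. In the other 10, Tnni2 was at most 0.139 CPM and Tnnc2 at most 0.217 CPM. Ube2c, which shares most of the exon bases of Tnnc2, was at 0.864 CPM in KO_GFP 1 and 0.310 CPM in WT_PRDM16 2.

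Slow and fast forms parted in these low libraries. Tnnc1 had 0 to 38 counts in a library (0 to 0.566 CPM), and in the 5 libraries with no Tnnc2 count it had 13 to 30. Tnnt1 had 10 and 30 counts in WT_GFP 1 and WT_GFP 2, which held no Tnnt3 count. Troponin I went the other way there, with 7 and 9 counts of Tnni2 and none of Tnni1. In WT_PRDM16 2, by contrast, 129 counts of Tnnt3 and 51 of Tnni2 stood beside none of Tnnt1 or Tnni1, although 36 counts of Tnnc2 stood beside 18 of Tnnc1, and Myh7 was also at 0 beside 1064 counts of the 3 fast myosin genes. In KO_GFP 1, Tnni1 was 11.2% (7.28 to 16.2) of troponin I counts and Tnnt1 4.28% (2.55 to 6.67) of troponin T counts, within the range of the untreated libraries.

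Cardiac forms were as scarce in the AAV cohort as in untreated mice. Tnni3 was at most 0.347 CPM, in KO_GFP 3, the library where the overlapping Dnaaf3 was also highest, at 1.40 CPM. Tnnt2 had counts in 3 of the 12 libraries, 8 at most. Summed cardiac markers were 7.74 to 27.2 CPM, nearly all of it Ryr2 and Myl4, and Nppa, Nppb and Nkx2-5 had no count in any AAV library.

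Both tropomyosins had counts in every AAV library. Tpm1 was at 63.5, 41.9 and 55.8 CPM in WT_GFP, 39.5, 63.0 and 60.3 CPM in WT_PRDM16, 64.4, 53.3 and 55.3 CPM in KO_GFP and 68.8, 59.3 and 78.6 CPM in KO_PRDM16. Tpm2 was at 3.94, 3.15 and 3.06 CPM in WT_GFP, 3.39, 5.42 and 3.25 CPM in WT_PRDM16, 8.49, 3.01 and 3.86 CPM in KO_GFP and 5.35, 4.43 and 4.24 CPM in KO_PRDM16. In each of the 4 pairs of groups compared, the groups overlapped for both genes, and the highest Tpm2 values of WT_PRDM16 and KO_GFP were in the 2 libraries with the most fast troponin.

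In the AAV cohort 7 of the 10 genes were tested, Tnni1, Tnnt2 and Tnnt3 having failed the filter on low counts. None reached an FDR of 0.05 in any comparison by edgeR among 18899 genes, or by DESeq2. Between KO_GFP and WT_GFP, 0 of the 7 were called and none had an unadjusted p under 0.05, while edgeR called 0.0529% of all genes and DESeq2 238 genes. Between KO_PRDM16 and WT_PRDM16 it was 0 of 7 again, with none at an unadjusted p under 0.05, and edgeR called 0.0476% of all genes and DESeq2 626 genes. For AAV-PRDM16 against AAV-GFP, edgeR called 0 of 7 and 0% of all genes in WT and the same in KO. In each, 1 member had an unadjusted p under 0.05 by edgeR, where 1377 of the 18899 genes did in WT and 1211 in KO. DESeq2 called 147 genes in WT and 262 in KO, no member among them. For the interaction of genotype and virus, edgeR called 0 of 7 and 0% of all genes. The unadjusted p by edgeR was under 0.05 for 1 member, Tnni2, and for 603 of all genes. DESeq2 called 1 gene, which was no member. The virus comparisons share their AAV-GFP libraries with the genotype comparison.

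Single values in these comparisons rested on few counts. Tnnt1 was lower in WT_PRDM16 (6, 0 and 0 counts) than in WT_GFP (10, 30 and 33 counts) without overlap (unadjusted p 0.0333, FDR 0.629 by edgeR), 1 of 7 tested members where 14.4% of all genes did not overlap. Tnni2 was the member under an unadjusted p of 0.05 between KO_PRDM16 and KO_GFP (p 0.0346, FDR 0.691 by edgeR), and it had 191, 0 and 20 counts in KO_GFP and 7, 0 and 0 in KO_PRDM16. No tested member separated KO_GFP from WT_GFP (13.4% of all genes did), KO_PRDM16 from WT_PRDM16 (22.8%) or KO_PRDM16 from KO_GFP (9.43%). Tnni1, which was not tested, had 7, 9 and 4 counts in KO_PRDM16 and none in WT_PRDM16.

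For the tropomyosins, the AAV comparisons bounded a difference more tightly. Tpm1 had a log2 fold change of 0.10 ± 0.19 (SE) between KO_GFP and WT_GFP and 0.34 ± 0.19 between KO_PRDM16 and WT_PRDM16 (FDR 0.939 and 0.465 by edgeR). AAV-PRDM16 against AAV-GFP gave 0.01 ± 0.19 in WT and 0.26 ± 0.19 in KO (FDR 0.996 and 0.9999). Tpm2 had 0.59 ± 0.34 and 0.22 ± 0.34 between genotypes and 0.25 ± 0.34 and -0.12 ± 0.34 between viruses (FDR 0.654, 0.831, 0.935 and 0.9999). Without KO_GFP 1 the last value was 0.45, and without WT_GFP 2 that of Tpm1 between KO_GFP and WT_GFP was -0.05, so neither sign is fixed.

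The skeletal markers of the AAV libraries were low in sum and mostly absent by gene. The sum was 29.6 to 41.5 CPM in 10 libraries, with 2 to 11 of the 15 genes at 0, and most of it was Myl1, a fast myosin light chain, at 28.0 to 38.6 CPM. It was 122 CPM in KO_GFP 1, where all 15 had counts, and 60.2 CPM in WT_PRDM16 2, where 1 was at 0. Myh4 was at 31.2 and 5.51 CPM in these libraries and at most 0.20 CPM in the other 10. Of 12 thin filament partners 9 were tested, and none reached an FDR of 0.05 in any of the AAV comparisons. By edgeR, Neb and Acta1 had an unadjusted p under 0.05 between KO_GFP and WT_GFP, where 1734 of 18899 genes did. The same 2 did between KO_PRDM16 and KO_GFP (1211 of all genes) and for the interaction (603). Nebl did between KO_PRDM16 and WT_PRDM16 (2594). Acta1 and Neb were highest in KO_GFP 1, at 13.1 and 8.49 CPM. Smooth muscle genes summed to 33.8 to 63.6 CPM.

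The genes most like each member were named by the Pearson correlation of log2 CPM over the 22 libraries after each cohort's mean was removed, among 17182 genes tested in both cohorts. Among the fast genes, Tnnt3 was most like Ckm (0.98), Pvalb (0.97) and Myh4 (0.97), Tnni2 like Pvalb (0.95), Acta1 (0.95) and Atp2a1 (0.94), and Tnnc2 like Mylpf (0.93), Trdn (0.92) and Actn3 (0.91). The slow genes had Flnc, Rtn2 and Myl3 for Tnnc1 (0.93 to 0.94), Mylpf, Ldb3 and Pygm for Tnni1 (0.90 to 0.92) and Stac3, Homer2 and Cap2 for Tnnt1 (0.87 to 0.90). Tpm2 was most like Ldb3 (0.98), Eno3 (0.97) and Rtn2 (0.96), and Tpm1 like Myl1 (0.95), Actn2 (0.94) and Tcea3 (0.94). Tnnt2 had Mef2c, Tpm3 and Actn2 (0.80 to 0.81). Tnni3 stood outside the group, with Cd48, Zc3h12d and Herc6 (0.84 to 0.87), Cd48 being a leukocyte surface protein. Tnnt2 and Tnni3 had at most 44 and 50 counts in a library, so their likenesses rest on values near the detection limit. These libraries are shared by all genes, and the values describe them without a test.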

How the data were processed

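The authors deposited whole-number counts of reads per Ensembl gene, without normalization, in 1 table for each cohort. The submitters' processing notes name bcl2fastq 2.20, Trimmomatic 0.36, HISAT2 and GRCm38.p6, and the paper names another program for base calling. The counting tool, annotation release and strand handling are not given in the sources used here. Symbols, coordinates and exon lengths came from GENCODE M21, which matched 55227 of 55487 identifiers.

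In R 4.3.3, genes were filtered by filterByExpr of edgeR 4.0.16, scaled by TMM and compared by its two-sided quasi-likelihood test, with Benjamini-Hochberg adjustment. The untreated fit used 10 libraries and the AAV fit 12. The scripts were tested on simulated data. Alternatives were DESeq2 1.42.0, RLE scaling, other filters, left-out libraries, a replicate block, a Y-linked covariate and only the 2 groups compared. Same-numbered libraries of different groups deviated with correlations of -0.29 to 0.15, and differently numbered ones with -0.36 to 0.29. The numbers thus gave no sign of pairing mice, which so few libraries cannot exclude. Ratios had 0.5 counts added, and a count of 0 was read as allowing 3 counts.

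The genes named are the 10 members, 12 thin filament partners, the 3 genes most like each member, Cpeb2, Prdm16 and 4 myosin genes, plus overlapping genes and markers, some named after their values were seen. Members and lists were chosen with earlier results of these data known.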

Additional observations from a re-analysis of the deposited data

Results flagged for a closer look

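In untreated WT, the Tpm2 level of WT 3 (log2 CPM 7.88) lay far from the other 4 libraries, its gap to the nearest being 0.898 of the whole range. It was the one such value among 20 groups of 5 libraries examined, of which about 1 in 20 would be marked by chance. Tpm2 in the other WT libraries was at 11.1 to 15.2 CPM, and WT 3 was also the WT library with the highest skeletal marker sum, 3033 CPM.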

How the results depend on the processing

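No member reached an FDR of 0.05 in any comparison under any alternative run. In the untreated cohort, 8 members passed the looser thresholds (2-fold, FDR 0.5) with all libraries, 0 to 8 with 1 library left out, 5 with the replicate block, 0 without WT 1 and WT 2, 0 with Y-linked transcripts as a covariate, where the log2 fold changes of the 6 skeletal troponins were 2.51 to 3.39, and 7 of 8 tested without WT 3, KO 1 and KO 2. The share of all genes passing was taken only with all libraries, so the other counts have none beside them. The replicate block is given although the numbers gave no sign of pairing the mice, and it changed no other count of members. Some log2 fold changes near 0 turned their sign. Tnni3 in untreated mice was 0.0096 without WT 4, in a range of -1.33 to 0.0096 with 1 library left out, and 0.0627 with the Y-linked covariate. With 1 library left out, Tpm1 ranged from -0.0495 (without WT_GFP 2) to 0.2387 in KO_GFP over WT_GFP. In WT_PRDM16 over WT_GFP it ranged from -0.14 to 0.2035, below 0 without WT_GFP 2, WT_PRDM16 2 or WT_PRDM16 3, and was -0.10 without WT_PRDM16 2 and KO_GFP 1. Tpm2 there ranged from -0.0276 (without WT_PRDM16 2) to 0.3807 and was -0.0217 without both. In KO_PRDM16 over KO_GFP it ranged from -0.3949 to 0.45 (without KO_GFP 1) and was 0.46 without both. The cause was not tested. The other 359 single values kept their direction and side of the threshold, or moved by less than 1 SD. Depth limits the cardiac genes and, in the AAV cohort, all skeletal troponins, which had few or no counts in most libraries.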

Other observations

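Genes of muscle formation were detected in the libraries with high troponins. Myh8, a perinatal myosin, was at 10.9, 35.7 and 3.29 CPM in KO 1, KO 2 and WT 3. Myf6, a myogenic regulator that is retained in mature fibers, was at 10.0, 6.82 and 2.54 CPM in them. Myog was at 1.99, 1.13 and 0.53 CPM and Myod1 at 0.76, 0.30 and 0.19 CPM. Pax7, which marks satellite cells, was at 0.13, 0.16 and 0 CPM. The summed list of 7 such genes was at most 1.20 CPM in the other untreated libraries and at most 0.283 CPM in the AAV cohort.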
